A study of Mus musculus with 8 samples.

Results

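Peptidylarginine deiminases convert the arginine residues of proteins to citrulline, a calcium-dependent reaction that removes the positive charge of the side chain. Padi1, Padi2, Padi3 and Padi4 are the mouse genes of the catalytically active enzymes, and they lie beside each other on chromosome 4. Padi1 is best known from the epidermis, where its protein acts on keratins and filaggrin, and Padi3 from the hair follicle, where it acts on trichohyalin. Padi2 has the widest tissue range of the family and acts on myelin basic protein and vimentin, and Padi4 is known for the citrullination of histones in the nuclei of neutrophils. In hepatoma cells none of these roles is the textbook setting, so the levels of each gene are given here library by library.

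The 4 genes were taken as a family, out of 23403 genes with a read count, because Padi3 was among the largest rises in cells treated with Cr(VI). Peaks of chromatin more open in treated than in control cells were examined in the region with them. All 4 were among the 13619 genes that passed the filter on low counts. The cells were Hepa-1c1c7 (Hepa-1), an established mouse hepatoma line, and the chromium compound is labelled CrK2O4, a form of hexavalent chromium. RNA-seq covered 2 libraries of cells that had received 25 µM Cr(VI) in their medium over 90 minutes, and 2 libraries of control cells, whose labels name no regimen beyond growth without chromium. The labels do not say whether these controls shared the passage history of the treated cells. Any such difference cannot be told apart from the treatment. FAIRE-seq, which recovers DNA that is not crosslinked to protein, covered 1 library of the acutely treated cells and 1 of their control, and likewise 1 library of cells passaged 20 times with 0.5 µM Cr(VI) and 1 of controls passaged equally often without it. RNA-seq from this long-term treatment was not analysed here. Nothing in the labels says that the RNA-seq replicates came from separate cultures, so p-values measure the spread between these libraries, which may be technical.

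The RNA-seq libraries held between 32319676 and 37696116 counts. The control libraries were close to each other, with 83 genes differing more than 2-fold between them and a correlation across genes of 0.997 on the log2 CPM scale, where CPM are counts divided by the scaled library total. The treated libraries stood further apart, with 1404 such genes and a correlation of 0.974. Treated replicate 2 also held 112 genes with at least 5 counts that had at most 1 count in each other library, against 12 to 16 such genes in the others. The values of the Padi genes are therefore given with and without this library. Of the 12 liver cell markers, Alb ranged from 31450 to 124057 counts and Afp from 4376 to 5889 counts over the 4 libraries, and Serpina1b was at 0 in all of them.

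The 4 genes span 207079 bp of the mm10 assembly (GRCm38.p6). Padi4 lies at chr4:140745508-140774239, Padi3 at chr4:140785369-140810648 and Padi1 at chr4:140812981-140845778, all on the minus strand. Padi2 lies at chr4:140906336-140952586 on the plus strand. Padi3 and Padi1 are the closest neighbours, 2332 bp apart, while 60557 bp separate Padi1 from Padi2. Padi6, the family member of oocytes and early embryos, lies 2864 bp from Padi4. Each of the 4 genes has 16 exons in RefSeq, and their proteins are 662 (Padi1), 673 (Padi2), 664 (Padi3) and 666 (Padi4) residues long. Padi1 and Padi3 were the most alike pair, with 57.5% identical residues over the aligned positions, and Padi2 and Padi3 the least alike, with 51.1%. The transcripts of Padi1 and Padi3 shared 14 identical stretches of 50 bases, out of 3707 and 3019, and reads from those stretches cannot be told apart by sequence. The transcripts of Padi2 and Padi4 shared no such stretch with another of the 4.

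The promoters of the 4 genes are printed because the RNA levels of these genes differed in opposite directions while the genes share a locus. Each sequence is the 250 bases before a RefSeq transcript start (GRCm38.p6), 5′ to 3′ on the strand of the gene. For Padi1 and Padi3 this start is the outer end of the gene, while for Padi2 and Padi4 it lies 24 and 36 bases inside the gene boundaries given above. Capitals mark matches to an AP-1 sequence (TGANTCA), an NF-Y box (CCAAT) or an Sp1 box (GGGCGG), searched on both strands.
Padi4, chr4:140774204-140774453, minus strand: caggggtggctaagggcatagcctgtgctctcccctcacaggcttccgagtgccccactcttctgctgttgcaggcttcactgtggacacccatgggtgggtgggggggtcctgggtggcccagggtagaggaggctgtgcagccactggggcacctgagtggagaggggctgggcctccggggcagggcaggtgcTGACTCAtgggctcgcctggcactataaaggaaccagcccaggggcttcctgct
Padi2, chr4:140906110-140906359, plus strand: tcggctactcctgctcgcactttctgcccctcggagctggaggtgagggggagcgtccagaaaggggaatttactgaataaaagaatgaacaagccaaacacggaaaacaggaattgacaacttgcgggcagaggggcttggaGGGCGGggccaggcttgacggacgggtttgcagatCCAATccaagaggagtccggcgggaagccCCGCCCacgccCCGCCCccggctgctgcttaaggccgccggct
Padi1, chr4:140845779-140846028, minus strand: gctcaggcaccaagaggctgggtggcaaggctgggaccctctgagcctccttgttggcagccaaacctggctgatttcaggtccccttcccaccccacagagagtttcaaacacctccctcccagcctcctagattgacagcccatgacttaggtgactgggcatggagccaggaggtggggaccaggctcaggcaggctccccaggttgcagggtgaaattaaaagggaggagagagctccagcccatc
Padi3, chr4:140810649-140810898, minus strand: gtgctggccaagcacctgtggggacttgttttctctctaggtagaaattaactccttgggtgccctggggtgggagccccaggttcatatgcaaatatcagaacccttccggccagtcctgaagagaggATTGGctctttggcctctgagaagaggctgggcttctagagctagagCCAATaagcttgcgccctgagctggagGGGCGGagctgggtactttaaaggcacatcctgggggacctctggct

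The Padi4 promoter held an AP-1 match, TGACTCA, from 54 to 48 bases before this transcript start, and no NF-Y or Sp1 match. Its GC content of 66.0% was the highest of the 4. The Padi3 promoter held NF-Y matches on opposite strands, at 121 to 117 and at 74 to 70 bases before the start, and an Sp1 match at 47 to 42 bases. The Padi2 promoter held 1 NF-Y match and 3 Sp1 matches. The Padi1 promoter held none of the 3 sequences in this window. Of 32851 promoters of the same length, 6.75% held the AP-1 sequence, 33.8% the NF-Y box and 32.7% the Sp1 box, and the median GC content was 52.4%. The 4 promoters thus differed from each other in these letters, and a match says nothing about whether a factor binds there.

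Padi4 was the most abundant of the 4 in every library. It had 898 and 999 counts in treated replicates 1 and 2 and 1611 and 1816 counts in control replicates 1 and 2. Scaled to library size these were 26.5 and 34.5 CPM in treated cells against 46.3 and 46.4 CPM in control cells. Both treated libraries lay below both controls, and the controls were nearly equal. The treated mean was 30.5 ± 5.62 CPM and the control mean 46.4 ± 0.0772 CPM (SD, n = 2 each), a 1.52-fold lower level, and the fitted log2 fold change was −0.60 (SE 0.17). It was −0.81 without treated replicate 2 and −0.42 without treated replicate 1.

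Padi2 had 96 and 141 counts in treated replicates 1 and 2 and 92 and 91 counts in the controls. In CPM the treated libraries were at 2.84 and 4.87 and the controls at 2.65 and 2.33. The first treated library lay just above the higher control, and the second well above it. The means of 3.85 ± 1.44 and 2.49 ± 0.225 CPM (SD, n = 2 each) differed by less than the SD of the treated pair, and the log2 fold change was 0.63 (SE 0.34). Treated replicate 2 carried most of that value: it was 0.19 without this library and 0.98 without treated replicate 1.

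Padi1 had 149 and 270 counts in treated replicates 1 and 2 and 36 and 44 counts in the controls. On the CPM scale the treated libraries were at 4.40 and 9.32 and the controls at 1.04 and 1.13. The groups did not overlap, and the treated libraries differed 2.12-fold from each other. The control mean was 1.08 ± 0.0636 CPM and the treated mean 6.86 ± 3.48 CPM (SD, n = 2 each), a ratio of 6.35, with a log2 fold change of 2.66 (SE 0.45). Without treated replicate 2 the log2 fold change was 2.02, and without treated replicate 1 it was 3.11.

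Padi3 had the lowest level of the 4 in control cells and the largest ratio between the groups. Its counts were 249 and 393 in treated replicates 1 and 2 and 24 and 30 in the controls. In CPM the treated libraries were at 7.36 and 13.6 and the controls at 0.690 and 0.767. Even the lower treated library was far above both controls. The treated mean was 10.5 ± 4.39 CPM and the control mean 0.729 ± 0.0544 CPM (SD, n = 2 each), a ratio of 14.4, with a log2 fold change of 3.83 (SE 0.41). This change was 3.32 without treated replicate 2 and 4.22 without treated replicate 1. In bulk RNA, more cells with Padi3 transcripts and more transcripts per cell cannot be told apart.

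These fold changes are a description, because the genes were chosen from this contrast, and no p-value is given for them. The choice had been made among 189 genes that rose, ordered by log2 fold change and limited to those with an adjusted p under 0.05 in edgeR's quasi-likelihood test, a mean log2 CPM no lower than 2, and no overlap between treated and control libraries. Padi3 was the fifth and last gene taken, at 3.83, just behind Agt (angiotensinogen) at 3.84 and ahead of Tspoap1 at 3.44, the next outside. Of all tested genes, 0.338% had a larger log2 rise than Padi3, 1.15% a larger one than Padi1 and 14.0% a larger one than Padi2. A larger fall than that of Padi4 was seen in 14.8%. Of the 4 genes, 1 (Padi3) passed the adjusted threshold of 0.05, which 4.63% of the 13619 tested genes did, 1.78% as higher and 2.85% as lower. That pass was part of the choice of Padi3 and holds for the fit described here. Over the 9 alternatives the log2 fold change ran from 3.32 to 4.22 for Padi3 and from 2.02 to 3.11 for Padi1. It ran from −0.81 to −0.42 for Padi4 and from 0.19 to 0.98 for Padi2. Passes under the alternatives are not counted, because these fits called unlike shares of all genes. The share was 3.35% with library size only and 21.8% with a replicate block. For all 4 genes the treated libraries lay outside the controls, 3 above and 1 below. This was so in 66.3% of tested genes, 32.2% above and 34.0% below.

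**Figure D1:**
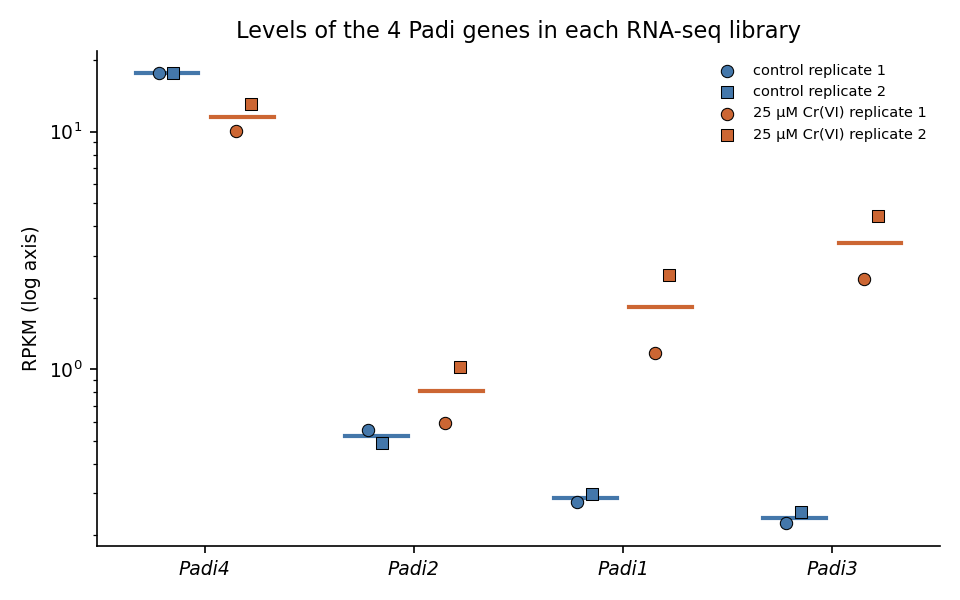
Levels of Padi4, Padi2, Padi1 and Padi3 as RPKM (CPM per kilobase of exon, log axis) in each RNA-seq library; circles are replicate 1, squares replicate 2 and bars the mean of a group (n = 2). The treated points of Padi1 and Padi3 lie above those of the controls, those of Padi4 below, and treated replicate 2 is the higher treated library for all 4 genes.

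All 4 genes were higher in treated replicate 2 than in treated replicate 1, Padi4 1.30-fold, Padi2 1.72-fold, Padi3 1.84-fold and Padi1 2.12-fold. Of all tested genes, 49.4% were higher in that library and the median ratio was 0.993. A ratio as large as that of Padi1 was seen in 4.61% of tested genes, and one as large as those of Padi3, Padi2 and Padi4 in 6.52%, 8.38% and 23.8%. For Padi4 the difference between the treated libraries ran against the difference between the groups, so that treated replicate 2 was the one nearer to the controls. For Padi1, Padi2 and Padi3 it was the one farther from them.

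Levels of different genes were compared per exon length, as RPKM, the CPM per kilobase of exon. In control cells Padi4 was at 17.6 ± 0.0292, Padi2 at 0.523 ± 0.0474, Padi1 at 0.288 ± 0.0169 and Padi3 at 0.238 ± 0.0177 RPKM (SD, n = 2 each). No neighbours in this order overlapped, though Padi1 and Padi3 were close, with library values of 0.276 and 0.300 against 0.225 and 0.250 RPKM. In treated cells the order was Padi4 at 11.6 ± 2.13, Padi3 at 3.41 ± 1.43, Padi1 at 1.83 ± 0.926 and Padi2 at 0.810 ± 0.302 RPKM. There Padi3, at 2.40 and 4.42 RPKM, and Padi1, at 1.17 and 2.48 RPKM, overlapped between libraries, although Padi3 was the higher of the pair in each library. Padi3 thus moved from the lowest to the second place of the family. Among 13567 tested genes with a length, the mean RPKM of Padi3 lay above 8.24% in control and 33.7% in treated cells, and that of Padi1 above 9.34% and 25.3%. The corresponding shares were 67.8% and 58.8% for Padi4 and 13.6% and 16.8% for Padi2.

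The summed RPKM of the 4 genes was 18.6 in both control libraries and 14.2 and 21.0 in treated replicates 1 and 2. Its mean of 17.6 ± 4.79 in treated cells differed from the 18.6 ± 0.0165 of the controls (SD, n = 2 each) by less than the treated spread. What the sum was made of differed more. Padi4 gave 94.3% and 94.4% of it in the controls and 70.7% and 62.2% in the treated libraries. Padi3 gave 1.21% and 1.34% in the controls against 16.9% and 21.1%, and Padi1 1.48% and 1.61% against 8.24% and 11.8%. Padi2 stayed a minor part, with 2.99% and 2.63% against 4.19% and 4.87%.

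**Figure D2:**
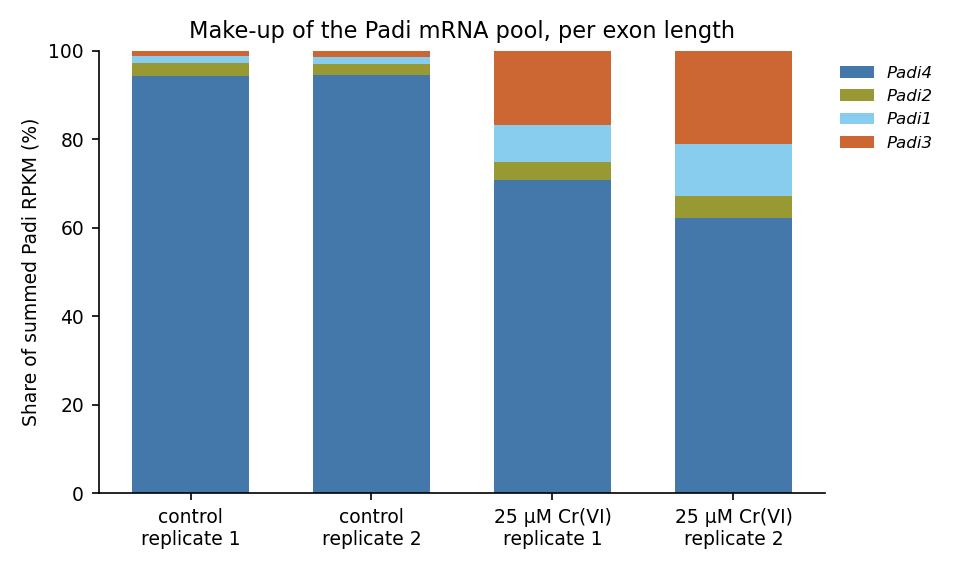
Share of each Padi gene in the summed RPKM of the 4 genes (%), 1 bar per RNA-seq library. Padi4 fills over 94% of the bar in both controls and 70.7% and 62.2% in the treated libraries, where Padi3 and Padi1 take up the difference.

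Padi6 had 0 and 10 counts in treated replicates 1 and 2 and 0 and 1 counts in the controls. It did not pass the filter on low counts, and no fold change is given. Its counts came almost all from treated replicate 2, the library with 112 genes of this kind.

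The locus was then read gene by gene to see which neighbours moved with the Padi genes. Within 200 kb of the span lay 21 other genes in the annotation, of which 14 had a row in the count table and 9 were tested. By edgeR 0 of these 9 passed the adjusted threshold, against the 4.63% of all tested genes, and 1 had an unadjusted p under 0.05, while DESeq2 called 1. Of all tested genes 30.7% had an unadjusted p under 0.05, and DESeq2 called 13.3% of the 14841 genes for which it gave an adjusted p. Without treated replicate 1 or treated replicate 2 the count was 6 of 9, in fits that called 77.6% and 67.2% of all tested genes. The gene with an unadjusted p under 0.05 was Gm13032, a long non-coding RNA on the plus strand whose start lies 344 bp from that of Padi3. It had 77 and 144 counts in treated replicates 1 and 2 and 33 and 33 in the controls, with a log2 fold change of 2.01 (SE 0.47, edgeR adjusted p = 0.0842), which was 1.34 without treated replicate 2. Gm13032 lies antisense to Padi1, and 1200 bp of exon are shared, which is 31.9% of the exon length of Padi1 and makes up most of the 2001 bp of Gm13032. Whether the counting used strand is not given in the sources used here, and without strand the reads of Padi1 and Gm13032 in this stretch cannot be told apart.

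The other tested neighbours lay between −0.41 and 0.29 on the log2 scale. Atp13a2, a lysosomal transport ATPase, was at −0.41 (edgeR adjusted p = 0.173), and Necap2, a protein of clathrin-coated vesicles, at 0.29 (adjusted p = 0.222). Rcc2 was at 0.17, with 6857 and 7835 counts in treated and 7348 and 8232 in control libraries, and Sdhb, a subunit of succinate dehydrogenase, at 0.16. Arhgef10l was at 0.26, Crocc at 0.19, Szrd1 at 0.16 and Fbxo42 at 0.10. Of the genes within the locus that were not tested, 4930515B02Rik had 0 counts in all libraries, Gm13031 had 0 in both treated libraries and 1 and 2 in the controls, and Mfap2 and Spata21 had at most 6. Padi3 overlaps 126 bp of the exons of Gm52482, and Padi2 149 bp of Gm13031 and 55 bp of Gm34375, each under 5% of the exon length of the Padi gene. Gm52482 and Gm34375 had no row and were not analysed here.

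**Figure D3:**
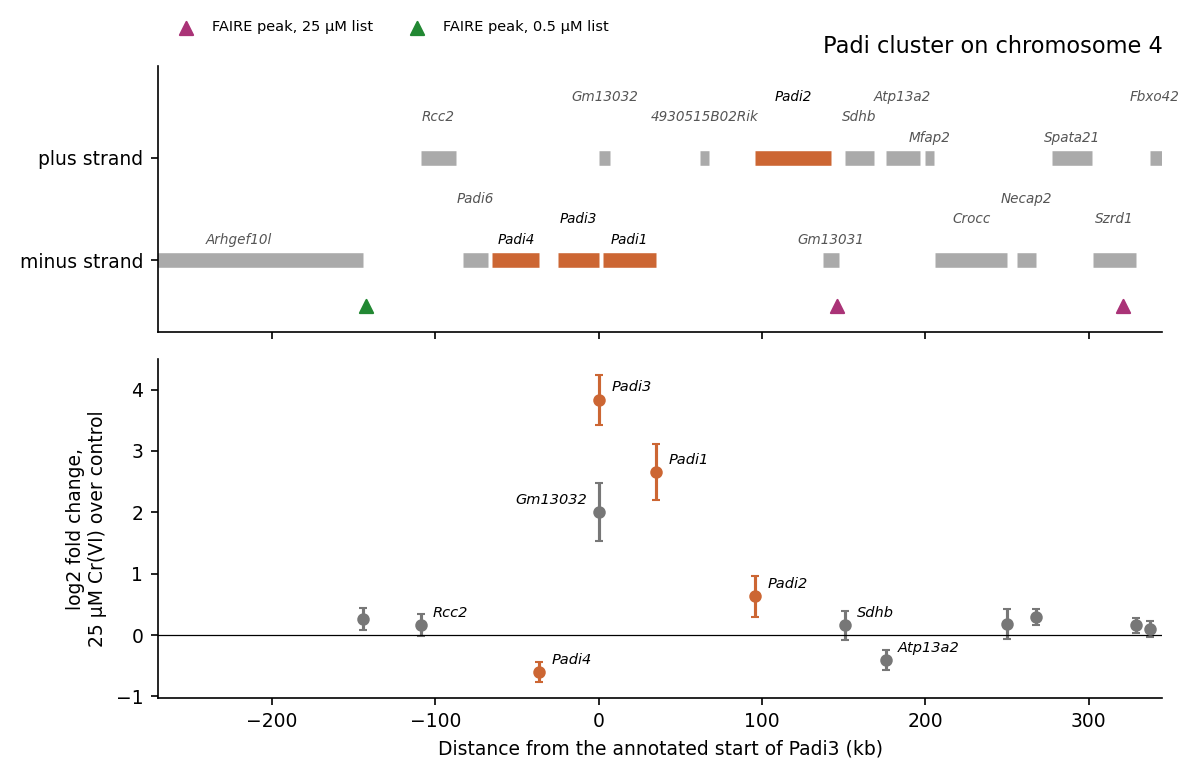
The Padi locus by distance from the annotated start of Padi3 (kb). The upper panel shows genes by strand, Padi1 to Padi4 in orange and others in grey, with FAIRE peaks as triangles, and the lower panel shows the log2 fold change (25 µM Cr(VI) over control) of each tested gene with its SE. Padi3, Padi1 and Gm13032 stand above the other genes of the region, Padi4 is at −0.60 and no triangle falls inside a Padi gene.

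FAIRE peaks at this locus are given beside the share of genes with a peak and the peak density of chromosome 4. Both deposited lists hold regions more open in treated than in control cells. Regions more open in control cells, which the paper also reports, were not examined here. No peak of the 25 µM list (2945 peaks) or of the 0.5 µM list (860 peaks) lay inside any of the 4 genes. Of protein-coding genes, 6.19% held a peak of the first list and 2.09% a peak of the second. From 50 kb below Padi4 to 50 kb above Padi2, a window of 307079 bp, there was 1 peak of the 25 µM list and 0 of the 0.5 µM list. The density of peaks on chromosome 4 would give 0.298 and 0.0687 in a window of this size. With 1 library per condition there is no replicate check on a peak, and its read depth is unknown.

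The peak of the 25 µM list lay 3659 bp past the end of Padi2, in an intron of the non-coding gene Gm13031. It was 98 bp wide with a MACS score of 57.0, which 48.1% of the list was below, so that it was an ordinary member of its list (median score 57.2, median width 120 bp). Distances to gene starts were measured from the centre of a peak to the outer end of the gene. The centre was 49958 bp from the start of Padi2, and 15.8% of protein-coding genes had a peak of this list as near or nearer. For Padi1, Padi3 and Padi4 this peak was also the nearest, at 110516, 145646 and 182054 bp. Its sequence is printed because it is the only peak of the window. It held no AP-1, NF-Y or Sp1 match, and 2.86% of windows of 98 bp held the AP-1 sequence.
Peak of the 25 µM list, chr4:140956245-140956342, plus strand: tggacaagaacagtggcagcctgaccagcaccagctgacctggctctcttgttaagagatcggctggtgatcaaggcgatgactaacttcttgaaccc

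The nearest peak of the 0.5 µM list lay outside the window, 77352 bp from the 3′ end of Padi4 and 1988 bp from the start of Arhgef10l. It ran over 323 bp at chr4:140667834-140668156, with a score of 70.4, above 81.0% of its list. Its distances to the starts of Padi4, Padi3, Padi1 and Padi2 were 106244, 142653, 177783 and 238341 bp. It held 1 NF-Y match and 1 AP-1 match, and 9.73% of windows of 323 bp held the AP-1 sequence and 42.0% the NF-Y box. The stretch around the AP-1 match, in capitals, is given, for comparison with the AP-1 match of the Padi4 promoter.
Peak of the 0.5 µM list, chr4:140667936-140668036, plus strand: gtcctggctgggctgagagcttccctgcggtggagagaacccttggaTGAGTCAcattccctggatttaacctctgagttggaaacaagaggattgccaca

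Proteins that are known targets of citrullination, and the enzymes that share arginine as a substrate, were examined next. Of 20 genes of known substrates, 15 were tested and 1 was called higher by edgeR, Fgb, against 1.78% of all tested genes called higher. An unadjusted p under 0.05 was seen in 4, against 30.7% of all tested genes. DESeq2 called 2 of the 16 for which it gave an adjusted p, Fga and Fgb, which is 12.5% against 13.3% of all genes. The list median of the log2 fold change was 0.26 against −0.0047 for all tested genes. Fgb encodes the beta chain of fibrinogen, a clotting protein secreted by the liver. It had 635 and 595 counts in treated and 131 and 135 in control libraries, and it rose with a log2 fold change of 2.44 (SE 0.17, edgeR adjusted p = 0.0282), and it was called under each of the 9 alternatives. The alpha chain, Fga, had 29 and 89 against 5 and 8 counts, with a log2 fold change of 3.45 (adjusted p = 0.0851), or 2.26 without treated replicate 2. The substrates with the highest levels had log2 fold changes of −0.15 for Vim (vimentin), −0.17 for Eno1 (enolase), 0.20 for Npm1 (nucleophosmin) and −0.53 for Gsk3b (a protein kinase), and none of these passed the test. Mbp, the myelin substrate linked to Padi2, was at 0.42 (adjusted p = 0.405). Most substrates linked to Padi1 and Padi3 in skin and hair had few counts. Tchh had between 1 and 7 counts, Krt1 had 0 in all libraries, and S100a3 had 8 and 19 counts in treated and 13 and 14 in control libraries. Krt10, an epidermal keratin, was the exception, with 175 and 130 counts in treated and 174 and 175 in control libraries and a log2 fold change of 0.028 (adjusted p = 0.940).

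Over all tested genes edgeR called 4.63% and 30.7% had an unadjusted p under 0.05. DESeq2 called 13.3% of the genes for which it gave an adjusted p. Of 11 genes of arginine methylation, 10 were tested and 0 were called by edgeR, with 1 at an unadjusted p under 0.05. DESeq2 called 1 of the 10 for which it gave an adjusted p. The list median was −0.23. The arginine methyltransferase Prmt3 had 814 and 775 counts in treated and 1439 and 1611 in control libraries, a log2 fold change of −0.70 (adjusted p = 0.0576). The most abundant genes of the list were Wdr77, Carm1 and Jmjd6, at −0.27, −0.26 and −0.07, and Prmt1. Prmt1, which makes most of the asymmetric dimethylarginine of cells, was at 0.031 (adjusted p = 0.957). Of 13 genes of arginine and citrulline metabolism, 8 were tested and 0 were called by edgeR. An unadjusted p under 0.05 was seen in 6, against the 30.7% of all tested genes. DESeq2 called 4 of the 10 for which it gave an adjusted p (Arg2, Asl, Ddah1 and Ddah2), against its 13.3% of all genes. Values there went both ways, with a list median of −0.27. The most abundant genes of the list were the arginine transporters Slc7a1 and Slc7a2, at −0.37 and −0.58, and Ass1, the argininosuccinate synthase, at −0.29 (adjusted p = 0.145, 0.107 and 0.365). Asl, which splits argininosuccinate, was at 0.67 (adjusted p = 0.0514), Ddah1, which degrades dimethylarginine to citrulline, at −0.76 (adjusted p = 0.0584) and its relative Ddah2 at 2.50 (adjusted p = 0.135). Ddah2 had 113 and 474 counts in treated and 61 and 67 in control libraries, and its log2 fold change was 0.94 without treated replicate 2.

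Of 16 genes of transcription factors reported at Padi promoters, all were tested and 0 were called by edgeR, against 4.63% of all tested genes. An unadjusted p under 0.05 was seen in 3, against 30.7% of all tested genes. DESeq2 called 0, against 13.3% of all genes for which it gave an adjusted p. The list median was 0.30. The subunits of NF-Y were at 0.17 (Nfya), 0.58 (Nfyb) and −0.06 (Nfyc), and Sp1 and Sp3 were at 0.22 and 0.10. Among AP-1 subunits, Jun was at 0.74 and Junb at 0.80 (adjusted p = 0.240 and 0.183), which became 0.15 and 0.27 without treated replicate 2. Jund was at 0.05, Fos at 0.39, Fosl2 at 0.38 and Fosb at 0.68 (adjusted p = 0.814, 0.483, 0.115 and 0.577). Fosl1 had 2072 and 10222 counts in treated and 2948 and 3396 in control libraries, so that the treated libraries lay on opposite sides of the controls. Hif1a was at −0.17 (adjusted p = 0.562), Trp53 at 0.46 (adjusted p = 0.183) and Esr1, the estrogen receptor, at −0.91 (adjusted p = 0.130). Over the substrate, methylation, metabolism and factor lists together with the neighbours, 58 genes were tested and 1 was called. This count was 41 of 59 without treated replicate 1 and 42 of 58 without treated replicate 2, in the fits that called 77.6% and 67.2% of all tested genes. It was 2 without control replicate 1 or control replicate 2, where 2.07% and 2.02% of all tested genes were called.

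**Figure D4:**
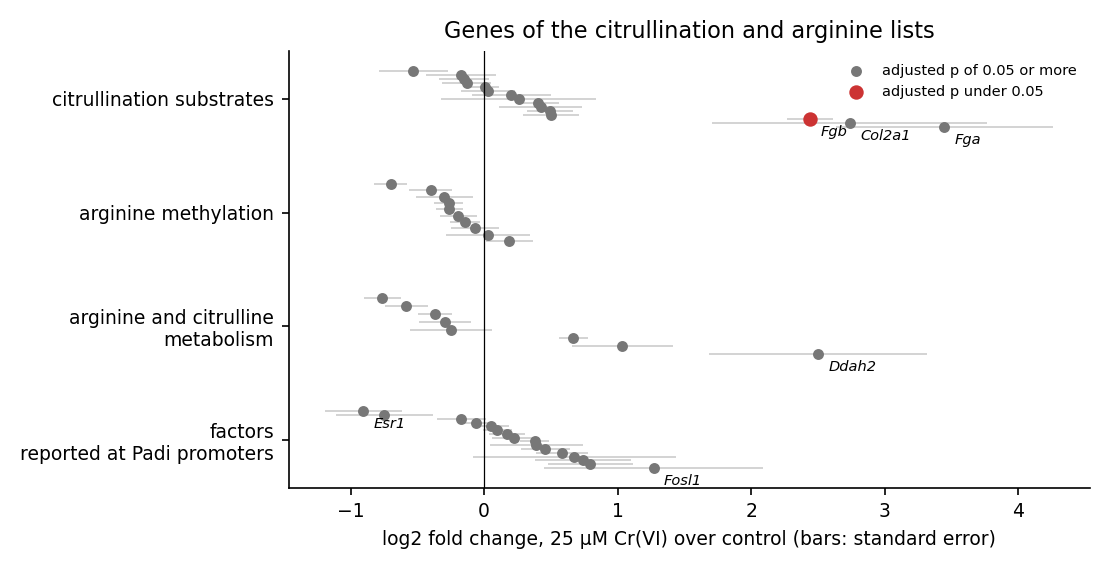
Log2 fold change (25 µM Cr(VI) over control) of the tested genes of the substrate, arginine methylation, arginine and citrulline metabolism and promoter factor lists, with SE bars. Fgb, in red, is the gene with an adjusted p under 0.05 (edgeR), and Fga, Col2a1 and Ddah2 have larger fold changes with wide bars.

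Most markers of the cell types in which Padi genes are best known had few counts, with exceptions such as Acta1 (796 to 1411 counts), Csf3r (148 to 152) and Ivl (13 and 33 in treated, 140 and 171 in control libraries). Of the granulocyte and leukocyte markers, Ptprc had between 0 and 3 counts, Elane between 0 and 11 and Mpo between 0 and 13, and for Elane and Mpo nearly all counts came from treated libraries. The summed level of the list was 5.14 and 6.84 CPM in treated and 6.39 and 6.27 CPM in control libraries, most of it from Csf3r. Of the 10 genes of this list 3 were tested, with 2 at an unadjusted p under 0.05, and 1 was called lower, against 2.85% of all tested genes. DESeq2 called 1 of the 6 for which it gave an adjusted p. Over all genes 30.7% of those tested had an unadjusted p under 0.05, and DESeq2 called 13.3%. The gene called lower was S100a9, with 4 and 1 counts in treated and 39 and 45 in control libraries (log2 fold change −3.79, SE 0.53, edgeR adjusted p = 0.0408). The call was lost without control replicate 1 or control replicate 2, while the log2 fold change stayed between −4.89 and −3.23 over the 9 alternatives. Of the keratinocyte and hair follicle markers 5 were tested and 0 were called, with 1 at an unadjusted p under 0.05, and DESeq2 called Ivl. Krt14 was at 0.72 and Trp63 at −1.22 (adjusted p = 0.564 and 0.166). Their summed level was 10.7 and 15.8 CPM in treated and 16.2 and 17.5 CPM in control libraries, and Krt71 and Krt25, keratins of the hair follicle, had at most 2 counts. The oligodendrocyte and muscle markers summed to between 31.9 and 38.6 CPM in every library with Mag, Sox10, Olig2 and Myod1 at 0, and 0 of 3 tested genes were called by edgeR, by DESeq2 or at an unadjusted p under 0.05. The oocyte markers summed to 0.562 and 2.80 CPM in treated and 0.316 and 0.205 CPM in control libraries, with Zp2, Khdc3 and Figla at 0. This list was above both controls in both treated libraries. The only gene of it tested by edgeR, Zp3, had 11 and 11 counts in treated and 1 and 0 in control libraries and was not called (adjusted p = 0.0613), with an unadjusted p under 0.05. DESeq2 called Gdf9, which had 6 and 60 counts in treated and 4 and 3 in control libraries.

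Liver cell markers were higher in treated than in control libraries as a summed level. Of 12 such genes, 10 were tested and 2 were called higher by edgeR, against 1.78% of all tested genes, with a list median of 0.82. DESeq2 called 4 of the 10 for which it gave an adjusted p, against 13.3% of all genes. The summed level was 5361 and 5971 CPM in treated against 2266 and 2333 CPM in control libraries. Most of it came from Alb and Trf. Alb alone was at 3667 and 3550 CPM in treated and 905 and 948 CPM in control libraries, and Trf at 1432 and 2076 against 1094 and 1111 CPM. Alb had a log2 fold change of 1.96 (SE 0.20, edgeR adjusted p = 0.0317), and Ttr one of 2.46 (SE 0.29, adjusted p = 0.0332). Both calls were lost without control replicate 1 or control replicate 2. Over the 9 alternatives the log2 fold changes stayed between 1.85 and 1.98 for Alb and between 2.35 and 2.54 for Ttr. Afp was at 0.034. The part of these genes, or of the spread between the treated libraries, in the levels of the Padi genes was not tested.

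The genes whose profiles over the 4 libraries were most like those of each Padi gene were found by the Euclidean distance between log2 CPM values, each centred on its own mean. These log2 values used a prior count of 2, which flattens the profiles of genes with few counts. The ranks hold for this prior, and no other was tried. For Padi3 these were Apoc1, Tspoap1, Il2rb, Tnnc2 and Serpind1, at distances of 0.212, 0.325, 0.435, 0.548 and 0.614. Tspoap1, at 20.3 and 34.7 CPM in treated and 2.36 and 2.71 CPM in control libraries, had counts high enough to show the shape plainly. Apoc1 had 0 counts in both controls, and its fitted log2 fold change was 7.52 against 3.83 for Padi3. Padi1 was 55th in likeness to Padi3, at 1.18, behind genes elsewhere in the genome. For Padi1 the nearest were Matn2, Pip5kl1, Idi2, Prrx2 and Car15, with Matn2 at 0.177. Pip5kl1, a gene of few counts, had a fitted log2 fold change of 4.04 against 2.66 for Padi1. For Padi2 they were Armc7, Snord45c, Hspa1a, Psg29 and Prss57, with Armc7 at 0.0601, and Armc7 like Padi2 was high in treated replicate 2 (21.6 CPM, against 10.8 to 12.5 CPM in the others). For Padi4 they were Slc25a11, Tpd52, Ly6a, Aldh3a1 and Pik3r3, with Slc25a11 at 0.0298. The profiles of the 4 Padi genes were therefore not each other's nearest. With 4 libraries this likeness is a description of the same libraries from which the genes were chosen.

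**Figure D5:**
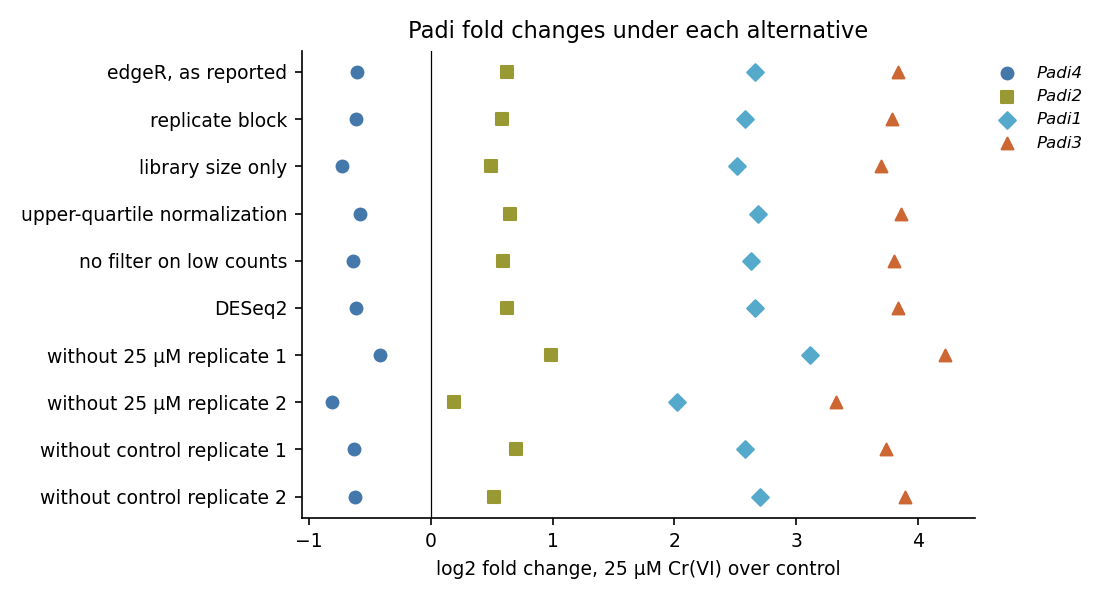
Log2 fold change of each Padi gene (25 µM Cr(VI) over control) as reported and under 9 alternatives. Every point keeps its side of 0, and leaving out a treated library moves the points most, with Padi2 between 0.19 and 0.98.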

How the data were processed

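RNA-seq values were raw read counts per Entrez gene as deposited by the authors, who sequenced poly-A RNA and aligned reads to mm10 with TopHat. The counting tool, its annotation and its use of strand are not given in the sources used here. FAIRE-seq values were the peak lists deposited by the authors, who used BWA and MACS at default settings on 1 treated against 1 control library. The deposited score of a peak is 10 times the −log10 p-value of MACS, so peaks carry no depth. The submitters' processing notes also name CASAVA 1.8. The authors tested expression with DESeq, which was not used here.

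Of 23403 gene identifiers, 23305 matched a RefSeq symbol. Treated and control cells were compared by edgeR's quasi-likelihood test on genes passing filterByExpr (TMM factors, two-sided, Benjamini-Hochberg over all tested genes, threshold 0.05, no block). TMM gave the treated libraries factors of 1.03 and 0.897 and each control a factor of 1.04, and the biological coefficient of variation was 0.193. CPM used these factors, and RPKM divided CPM by the RefSeq exon length. Log2 CPM values, used for profiles and for comparing libraries, were computed with a prior count of 2. Alternatives were DESeq2, a replicate block, library size only, upper-quartile normalization, testing without the low-count filter, dropping each library in turn, other windows and a score of at least 60 for peaks, and a stricter AP-1 sequence. The edgeR fit was tested on simulated counts with an equal spread in both groups. In these data the treated libraries stood further apart than the controls, which the simulation does not cover.

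The members and gene lists were chosen with earlier results of these data known. Genes named are the 4 members, Padi6, genes within 200 kb, the 5 nearest profiles per member and, from each list, called genes or the 4 highest in mean CPM. Other list genes (Fga, Col2a1, Mbp, Tchh, Krt1, Krt71, Krt25, Krt10 as a substrate, S100a3, Prmt3, Arg2, Ddah1, Ddah2, the NF-Y, Sp and remaining AP-1 genes, Esr1, Serpina1b, Ptprc, Elane, Mpo, Gdf9 and marker genes at 0) were named after their values were seen.

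Promoter and peak sequences came from RefSeq tables and the genome of GRCm38.p6. Versions were Python 3.11.15 with Biopython 1.88, pandas 2.3.3, matplotlib 3.10.9 and numpy 2.4.6, and R 4.3.3 with DESeq2 1.42.0 and edgeR 4.0.16.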

Additional observations from a re-analysis of the deposited data

How the results depend on the processing

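The log2 fold changes of the 4 Padi genes kept their direction in all 36 alternatives run, with Padi2 at 0.19 without treated replicate 2 against 0.63 with it. Library size alone shifted the median of all genes to −0.11 and called 456 genes against 631, with 627 under upper-quartile normalization and 777 without a filter. DESeq2 called 1978 genes, 958 higher and 1020 lower, which is 10.5% of the 18864 genes it was run on. Of the pathway list genes it called 7 of 69, or 10.1%, against 1 of 58 by edgeR. A fit with the replicate block called 2969 genes, or 21.8% of those tested, and 13 of 58 list genes, or 22.4%. It gave log2 fold changes of 2.58, 0.59, 3.79 and −0.62 for Padi1 to Padi4. Deviations of libraries with the same number correlated at 0.0909, which over 2 pairs does not show that the numbers pair the samples.

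Leaving out a library moved the number of called genes between 287 (without control replicate 2) and 10995 (without treated replicate 1), with 294 without control replicate 1 and 9333 without treated replicate 2, and the list genes between 2 and 42. The left treated library is then assumed to vary like the controls, which were close to each other. For peaks, the 25 µM list held 0 at the cluster with a score of at least 60 and 2 within 200 kb, and the 0.5 µM list held 1 within 200 kb. The control counts of Padi1 and Padi3, between 24 and 44, limit the precision of their ratios.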
